A study of Mus musculus with 4 samples.

Results

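The enzyme families that oxidize, hydrolyse and conjugate foreign compounds were followed across 4 mouse intestinal samples. Members were taken by name: the cytochrome P450 genes whose symbols begin with Cyp1, Cyp2, Cyp3 or Cyp4, the UDP-glucuronosyltransferases (Ugt1, Ugt2), the sulfotransferases (Sult), the alpha, mu, pi and theta classes of glutathione transferases (Gsta, Gstm, Gstp, Gstt) and the carboxylesterases (Ces), without Cyp2c55 and Ugt2b34. That gave 155 of the 22180 genes with a value. Of these, 93 were P450 genes, and 14 of the P450 genes belonged to families 11 to 46, whose names begin with the same characters. The latter families mostly act on steroids, bile acids, vitamin D and retinoids, and they are given separately.

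Each of 4 groups was measured on 1 whole-transcript Affymetrix array, with RNA of T cells pooled from C57Bl/6 mice aged 8 to 10 weeks (10 mice, 5 male and 5 female, by the labels, which do not say whether this holds per array). One array is labelled T cells of the colon lamina propria, the tissue beneath the epithelium, and is called the LP-labelled array. The others are labelled intraepithelial lymphocytes (IEL, lymphocytes lodged between the epithelial cells): those of the small intestine, those of the unmanipulated colon, and those of the colon in mice given vancomycin, ampicillin, neomycin and metronidazole in drinking water for 7 days and then recolonized for 7 days. All samples went through the same negative selection for T cells, with an antibody against the epithelial protein EpCAM added. With 1 array per group no test was possible: every difference below is a difference of 2 log2 levels of the same probe set, without an error. Percentiles and the words bright and dim give a probe set's position among those of its array, and since probes differ in how strongly they bind, they are no measure of 1 transcript's abundance against another's.

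Foreign compounds are cleared in steps. Phase I enzymes, mainly the P450 enzymes with their electron donors and the carboxylesterases, add or expose a reactive group. Phase II enzymes then attach glucuronic acid, sulfate or glutathione, and efflux transporters carry the conjugates out of the cell. In the gut these enzymes are known from the absorptive epithelial cells, where nuclear receptors such as PXR and CAR, the aryl hydrocarbon receptor and NRF2 set their levels.

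The content of the arrays bears on every value below. Of 10 measured T cell markers, all lay at or above the 75th percentile of the array's genes on the 3 IEL arrays, and 0 did so on the LP-labelled array, where Cd3e was at 3.72 against 9.17 to 9.49 on the others. The 15 pan-epithelial markers had median levels of 8.51 on the LP-labelled array, 6.98 for small intestinal IEL, 4.28 for colon IEL and 5.07 after recolonization, and the log2 of their summed linear levels was 12.87, 12.05, 9.39 and 10.12 in that order. Small intestinal enterocyte markers were highest for small intestinal IEL (median 9.22) and colonocyte markers on the LP-labelled array (median 7.77). The 8 hepatocyte markers had medians of 1.62 to 2.04 on the 4 arrays, and 1 of them, Tat, reached the 75th percentile, at 5.58 on the LP-labelled array and 3.85 for colon IEL. The content of the LP-labelled array thus goes against its label. In such bulk samples, fewer cells of a type and less RNA per cell cannot be told apart.

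Read this way, 75 of the 155 members lay below the median gene level on all 4 arrays, and 108 did not reach the 75th percentile on any array. The number at or above that percentile, which 25% of all genes reach by definition, was 35 (22.6%) on the LP-labelled array, 27 (17.4%) for small intestinal IEL, 10 (6.45%) for colon IEL and 14 (9.03%) after recolonization. Of the members that reached it, 41 did so on the LP-labelled array or the small intestinal IEL array, 21 of them on both, and 6 did so on a colon IEL array alone. Those 6 were Cyp2a22, Cyp2d37-ps, Cyp2j9, Cyp4b1-ps2, Cyp4f17 and Cyp4f18. The same overlaps between arrays were not counted over all genes. Epithelial markers were highest on the same pair of arrays, and their part in these levels was not tested.

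**Figure D1:**
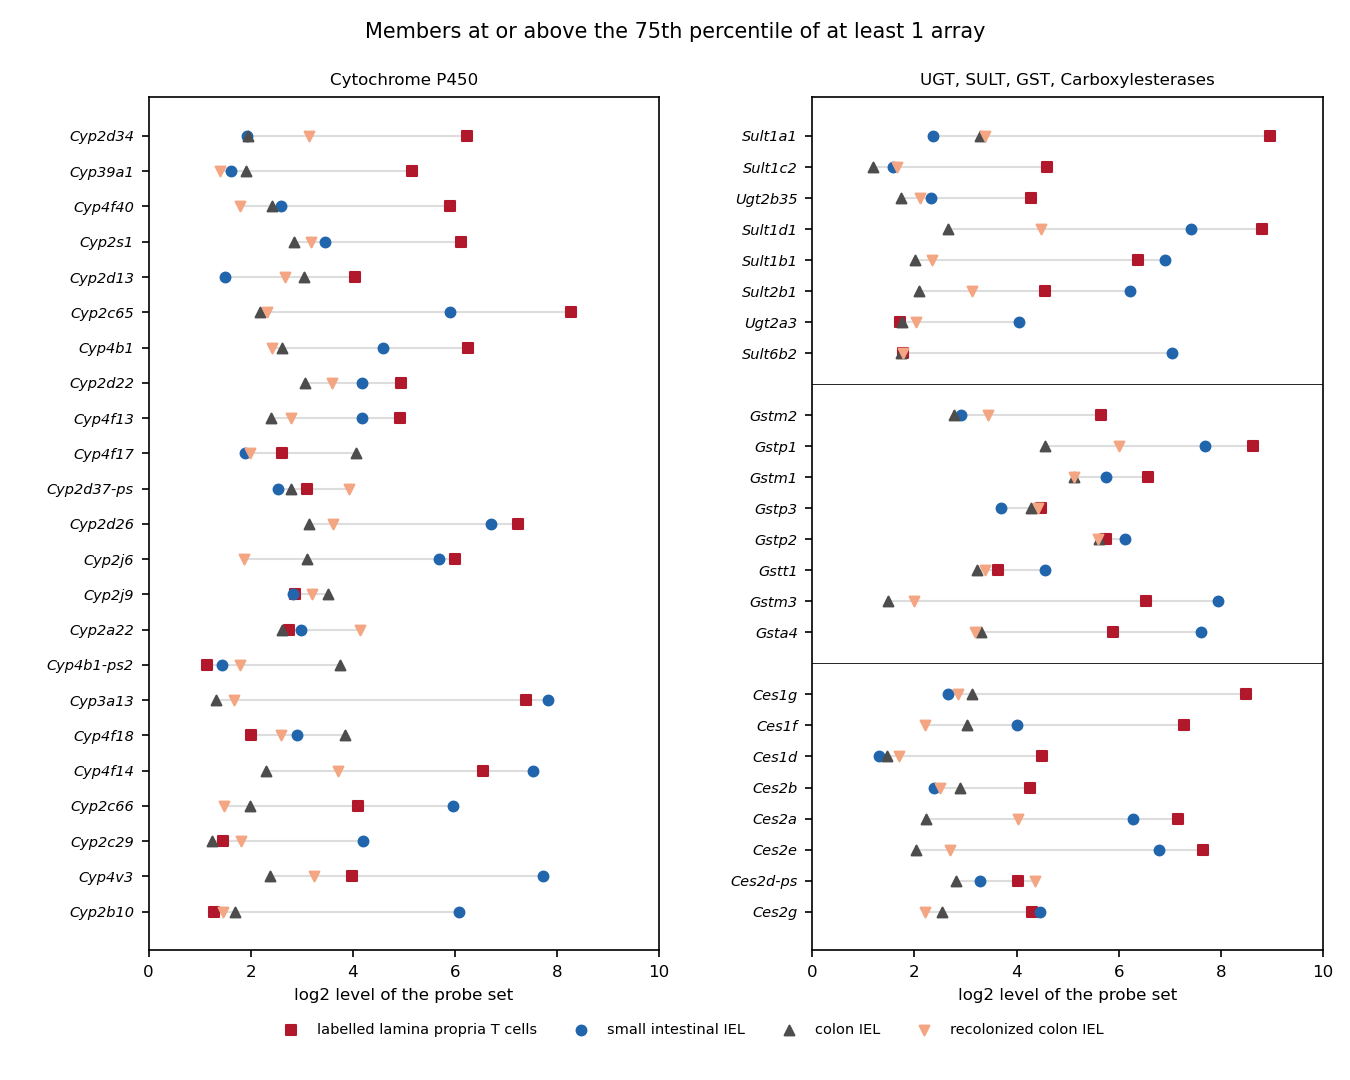
Log2 probe set levels (x axis) of the 47 members at or above the 75th percentile of at least 1 array, 1 row per gene, with 1 symbol per array and genes ordered within each panel section by the difference between the small intestinal IEL array and the LP-labelled array. Colon IEL and recolonized colon IEL lie at the low end for most genes, whereas Gstm1, Gstp1 and Gstp2 are at or above the 75th percentile on all 4 arrays.

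The small intestinal IEL array and the LP-labelled array had the highest epithelial marker levels, of small intestine and of colon, and they were compared first. Sulfotransferase Sult1a1 and 4 of the 8 carboxylesterases of the Ces1 group (Ces1d, Ces1e, Ces1f and Ces1g) stood higher on the LP-labelled array, and Sult6b2, Cyp2b10 and Cyp4v3 stood higher on the small intestinal array. A member was counted when the array on which it was brighter gave it at least the median level of all genes there, and was called at a difference of 2-fold or more. Of 155 members 71 were counted: 11 (15.5%) were at least 2-fold higher for small intestinal IEL and 21 (29.6%) at least 2-fold lower, against 8.76% higher and 15.7% lower, 24.5% either way, among all 12164 genes counted the same way. The median difference was −0.53 for the members and −0.17 for all genes. Because a gene can pass on its bright array alone, these counts describe the arrays and were given no test. For scale, the 63 ribosomal protein genes had an SD of 0.35 in this comparison, and the paired probe sets of 968 genes differed by an SD of 0.85. Pan-epithelial markers were lower for small intestinal IEL by a median of 2.01 (12 of 15 at least 2-fold lower), enterocyte markers higher by 3.13 (15 of 15) and colonocyte markers lower by 4.35 (8 of 10).

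**Figure D2:**
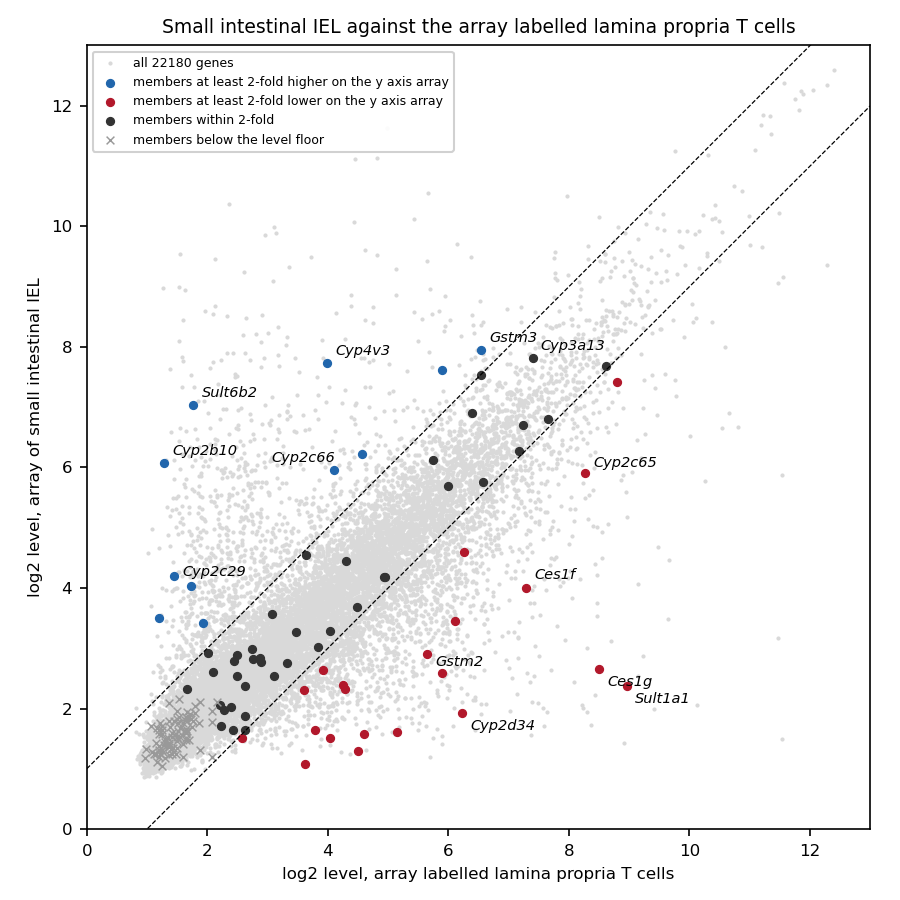
Log2 level of each gene on the LP-labelled array (x axis) and on the small intestinal IEL array (y axis), with all 22180 genes in grey, members in colour by their call and dashed lines at 2-fold. Sult6b2 and Cyp2b10 lie far above the lines and Sult1a1 and Ces1g far below, while Cyp3a13 lies between them.

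The first family of P450 enzymes oxidizes planar aromatic compounds and is switched on by the aryl hydrocarbon receptor. Its 3 members were dim on every array: Cyp1a1 was at 1.87 on the LP-labelled array, 2.11 for small intestinal IEL, 1.89 for colon IEL and 2.20 after recolonization, Cyp1a2 reached at most 2.22 and Cyp1b1 ranged from 1.34 to 1.61. None of these values reached the median gene level of its array. The receptor itself, Ahr, was within 2-fold across the arrays, with levels of 4.15 to 4.72, and its repressor Ahrr was at 1.64 to 2.35. Cyp2e1, which oxidizes ethanol and small solvents in liver, was likewise at 1.53 to 1.77.

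Family 2 held 49 members, of which 20 were counted in the comparison of the small intestinal array with the LP-labelled array. For small intestinal IEL 4 (20%) were higher and 7 (35%) lower, against 8.76% and 15.7% of all genes counted. Cyp2b10, the classical target of the receptor CAR, was at 6.07 for small intestinal IEL and at 1.28, 1.70 and 1.46 on the LP-labelled array and on those of colon and recolonized colon IEL. Its level thus stood out on 1 array, and the other 4 Cyp2b members stayed between 1.16 and 2.10 on all arrays. Cyp2c29, which oxidizes fatty acids and drugs, was at 4.19 for small intestinal IEL and at 1.24 to 1.80 elsewhere. A second probe set of Cyp2c29 ranged only from 1.14 to 1.94 and did not show this, so the call rests on 1 of 2 probe sets. Cyp2u1, a fatty acid hydroxylase, was at 3.42 against 1.93 to 2.08.

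Members of the Cyp2d group, relatives of the human drug-oxidizing enzyme of that name, leaned the other way. Cyp2d34 was at 6.23 on the LP-labelled array, 1.92 for small intestinal IEL, 1.95 for colon IEL and 3.14 after recolonization. Of the 6 Cyp2d members counted, 3 (50%) were at least 2-fold lower for small intestinal IEL (Cyp2d34, Cyp2d12 and Cyp2d13), against 15.7% of all genes counted. The others were 0 higher, against 8.76%, and 3 within 2-fold, among them Cyp2d26 at 7.23 and 6.71. These genes are close copies of each other, and whether their probe sets read only the named gene was not tested. Cyp2s1, an epithelial P450 outside the liver, was at 6.12 against 3.46, and Cyp2w1 at 3.79 against 1.65. Cyp2j6, which oxidizes arachidonic acid, differed little between these arrays (6.00 and 5.69).

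Neighbouring genes of the Cyp2c cluster differed in opposite directions. Cyp2c65, which oxidizes arachidonic acid, was at 8.26 on the LP-labelled array, 5.91 for small intestinal IEL, 2.19 for colon IEL and 2.31 after recolonization. Cyp2c66, its neighbour in RefSeq order (of protein-coding genes only, here and below), was at 4.10, 5.96, 1.98 and 1.48 on the same arrays. The former was 2.36 lower and the latter 1.86 higher for small intestinal IEL, while both were low on the colon IEL arrays. Each gene had 1 probe set, and whether it reads only the named gene was not tested. Their upstream sequences are shown because the pair lies side by side, resembles each other and yet differs in direction. The 250 bases before the RefSeq start (GRCm38.p6, 5′ to 3′ on the gene's strand) aligned over 279 columns with 208 identical bases (74.6%). That share counts columns with a gap in either sequence, which made up most of the columns without identical bases. The Cyp2c66 window begins further upstream in the shared sequence, so its first bases have no partner in the Cyp2c65 window. Capitals mark matches, on either strand, to the letters of 5 motifs: GCGTG (aryl hydrocarbon receptor core), TGACNNNGC (antioxidant response element, bound by NRF2), CAAAGTCCA (HNF4 type), GTTAATNAT (HNF1 type) and TATAAA (a core promoter motif).
Cyp2c65 (chr19:39060756-39061005, plus strand): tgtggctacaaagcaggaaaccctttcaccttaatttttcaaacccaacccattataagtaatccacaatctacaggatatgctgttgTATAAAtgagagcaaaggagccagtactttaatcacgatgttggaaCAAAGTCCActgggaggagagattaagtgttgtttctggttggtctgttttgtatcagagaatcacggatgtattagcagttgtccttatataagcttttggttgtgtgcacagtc
Cyp2c66 (chr19:39113648-39113897, plus strand): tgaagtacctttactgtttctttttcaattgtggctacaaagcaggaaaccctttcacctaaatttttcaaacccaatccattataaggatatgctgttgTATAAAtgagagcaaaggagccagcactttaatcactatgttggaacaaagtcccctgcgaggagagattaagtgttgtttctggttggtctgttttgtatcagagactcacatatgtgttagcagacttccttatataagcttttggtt
Both windows held TATAAA, at 162 bases before the start for Cyp2c65 and 150 for Cyp2c66. Nearer the start both also held tatataag, which does not contain the letters TATAAA and is not marked. The Cyp2c65 window alone held CAAAGTCCA, at 116 bases before the start, and the Cyp2c66 window held caaagtccc, which differs in its last letter. A match of letters is a description and does not show a bound site.

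Over the 138 promoter windows of the 120 members found in the RefSeq promoter table, CAAAGTCCA occurred in 7 (5.07%), against 126 of 32851 windows of all genes (0.384%), and GTTAATNAT in 8 (5.80%) against 242 (0.737%). The latter motif was shortened by 1 base after a first count; with that base (T at its end) it occurred in the same number of member windows and in 122 (0.371%) of all. The 7 genes with the former were Cyp2c40, Cyp2c65, Cyp2c68, Cyp2c69, Cyp2c70, Cyp3a11 and Cyp3a16, and 4 of the 8 with the latter were Sult2a genes, so windows of duplicated genes were counted repeatedly. GCGTG was found in 23 member windows (16.7%) against 28.2% of all, TGACNNNGC in 4 (2.90%) against 10.2%, and TATAAA in 34 (24.6%) against 12.4%. Several windows can belong to 1 gene with more than 1 start, and no test was made.

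In family 3, the drug-oxidizing Cyp3a enzymes, Cyp3a13 was at 7.40 on the LP-labelled array, 7.81 for small intestinal IEL, 1.32 for colon IEL and 1.68 after recolonization. It was bright on both epithelium-rich arrays and dim on both colon IEL arrays, with 1 array per group. Cyp3a11, a target of PXR and the main such enzyme of mouse liver, was at 3.50 for small intestinal IEL and between 1.20 and 2.18 on the other arrays. The remaining 5 members of the family stayed between 1.11 and 2.15.

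Family 4 hydroxylates fatty acids and leukotrienes. Cyp4v3, a fatty acid hydroxylase, was at 7.73 for small intestinal IEL and 3.99 on the LP-labelled array, with 2.38 and 3.24 for colon and recolonized colon IEL. Cyp4f14, which inactivates leukotriene B4, was at 7.53 and 6.55 on the first pair, a difference of 0.98 that passed 2-fold after centring (1.15), and at 2.31 and 3.71 on the second. Cyp4f40 was at 5.90 on the LP-labelled array and at 1.80 to 2.59 elsewhere, and Cyp4b1 at 6.26 against 4.60 for small intestinal IEL. Of 10 family 4 members counted, 1 (10%) was higher and 2 (20%) were lower for small intestinal IEL, near the 8.76% and 15.7% of all genes counted. Among the 14 members of families 11 to 46, 6 were counted and 1 (16.7%) was called, against 24.5% of all genes either way. That member, Cyp39a1, which hydroxylates an oxysterol on the way to bile acids, was at 5.15 on the LP-labelled array and at 1.40 to 1.90 on the IEL arrays.

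Sulfotransferases held the largest difference among the members in each direction in this comparison. Sult1a1, which sulfates phenols, was at 8.96 on the LP-labelled array, 2.37 for small intestinal IEL, 3.29 for colon IEL and 3.38 after recolonization. Sult6b2 showed the reverse, at 1.77, 7.04, 1.74 and 1.77. Each was far brighter on 1 array than on the other 3. Sult1d1, which sulfates catecholamines, was bright on both epithelium-rich arrays, at 8.80 and 7.42, and stood at 2.67 and 4.48 for colon and recolonized colon IEL. Sult1b1, active on phenols and thyroid hormone, was at 6.39 and 6.91 on the first pair and at 2.02 and 2.35 on the second. Sult2b1, which sulfates cholesterol and related sterols, was at 4.56 and 6.22, and Sult1c2 at 4.59 and 1.57. Of 21 sulfotransferases 6 were counted, and the 8 Sult2a members, known from liver, were all between 1.10 and 2.43 on every array.

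The upstream sequences of both genes are printed with those of Ces1g and Cyp2b10, since these were the 2 members with the largest differences in each direction. As above, each is the 250 bases before the RefSeq start with matches to the 5 motifs in capitals.
Sult1a1 (chr7:126676419-126676668, minus strand): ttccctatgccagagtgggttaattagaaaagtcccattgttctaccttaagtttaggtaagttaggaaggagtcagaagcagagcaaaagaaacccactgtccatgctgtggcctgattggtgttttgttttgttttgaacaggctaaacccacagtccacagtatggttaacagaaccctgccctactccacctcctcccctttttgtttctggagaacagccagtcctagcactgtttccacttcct
Ces1g (chr8:93337210-93337459, minus strand): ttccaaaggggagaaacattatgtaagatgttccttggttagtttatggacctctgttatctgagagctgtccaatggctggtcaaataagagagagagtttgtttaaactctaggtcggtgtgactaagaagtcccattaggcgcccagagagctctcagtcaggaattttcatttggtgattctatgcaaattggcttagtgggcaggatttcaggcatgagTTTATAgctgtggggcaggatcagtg
Sult6b2 (chr6:142804467-142804716, minus strand): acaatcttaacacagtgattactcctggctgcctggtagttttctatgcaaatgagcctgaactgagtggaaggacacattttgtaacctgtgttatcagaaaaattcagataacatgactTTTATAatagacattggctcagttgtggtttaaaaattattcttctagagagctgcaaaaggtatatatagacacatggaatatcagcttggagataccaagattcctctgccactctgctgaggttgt
Cyp2b10 (chr7:25897408-25897657, plus strand): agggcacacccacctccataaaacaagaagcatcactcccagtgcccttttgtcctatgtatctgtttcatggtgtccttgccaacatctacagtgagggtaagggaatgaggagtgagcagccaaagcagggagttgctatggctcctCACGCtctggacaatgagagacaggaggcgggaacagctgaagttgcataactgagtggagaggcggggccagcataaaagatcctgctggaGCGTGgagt
The Sult1a1 window held none of the 5 motifs, those of Ces1g and Sult6b2 held TATAAA on the opposite strand, at 26 and 129 bases before the start, and the Cyp2b10 window held GCGTG at 101 bases (opposite strand) and 9 bases before it. In global alignment Sult1a1 and Ces1g shared 47.5% identity and Sult6b2 and Cyp2b10 50.5%, close to the 47.6% of Sult1a1 and Sult6b2, which differed in opposite directions. These shares also count columns with a gap.

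Carboxylesterases split by group. Ces1g, which hydrolyses esters including those of fatty acids, was at 8.50 on the LP-labelled array, 2.65 for small intestinal IEL, 3.12 for colon IEL and 2.85 after recolonization. Ces1f followed at 7.29, 4.01, 3.03 and 2.20, and Ces1d, a triacylglycerol hydrolase, at 4.49, 1.30, 1.46 and 1.70. Ces1d, Ces1e, Ces1f and Ces1g follow each other in RefSeq order and were all at least 2-fold lower for small intestinal IEL, and the only other Ces1 member counted, Ces1b, differed by 0.41. In the Ces2 group, 4 of 5 members counted were within 2-fold, including Ces2a at 7.16 and 6.27 and Ces2e at 7.65 and 6.80, and Ces2b was lower, at 4.25 and 2.38. Most genes lay within 2-fold in this comparison, as 24.5% of all genes counted passed it either way. Ces2a and Ces2e were at 2.22 and 2.03 for colon IEL. Across the whole set, 92 pairs of members were adjacent in the RefSeq order of protein-coding genes. Of these pairs, 8 were both called, 5 in the same direction and 3 in opposite ones. Members that RefSeq does not list as protein-coding were left out of the pairs. The pairs in the same direction include those of the Ces1 run, and no share over all neighbouring genes was computed.

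Glutathione transferases reached the 75th percentile on every array, in 7 members on the LP-labelled array, 6 for small intestinal IEL, 5 for colon IEL and 6 after recolonization. Of 15 members 14 were counted, and 10 of these were within 2-fold between small intestinal IEL and the LP-labelled array. The other members counted were 2 higher and 2 lower for small intestinal IEL (14.3% each), against 8.76% and 15.7% of all genes counted. Gsta4, which conjugates the lipid peroxidation product 4-hydroxynonenal, was at 5.89, 7.61, 3.31 and 3.18 for the LP-labelled array, small intestinal, colon and recolonized colon IEL. Gstm3 was at 6.54 and 7.94 on the first pair and 1.49 for colon IEL, whereas its RefSeq neighbour Gstm2 was at 5.65, 2.91, 2.77 and 3.44. Those neighbours were called in opposite directions. Gstm1 stayed at 6.57, 5.75, 5.12 and 5.12 and Gstp2 at 5.75, 6.13, 5.60 and 5.60, at or above the 75th percentile on all 4 arrays. Of the 15 pan-epithelial markers, 12 also reached that percentile for colon IEL and 14 after recolonization, and their part in these levels was not tested. Gstp1 was at 8.62, 7.69, 4.56 and 6.01, and Gstt1 at 3.64, 4.55, 3.22 and 3.39. A probe set that lists both Gstp1 and Gstp2, left out of the comparisons, was at 7.64, 7.04, 3.89 and 5.13, unlike the level values of Gstp2. The mu and pi members are close copies, and cross-reading between them was not tested. Nor was it tested whether the Gstp2 probe set reads that gene.

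UDP-glucuronosyltransferases of family 2 were mostly dim. Ugt2a3 was at 4.04 for small intestinal IEL and at 1.72 to 2.03 elsewhere, Ugt2b35 was at 4.29 on the LP-labelled array and at 1.73 to 2.33 elsewhere, and the other 5 members stayed between 0.79 and 2.62. Genes of the Ugt1a locus share their last exons, and their probe sets list several symbols, so none had a value of its own here. Gsta1, Gsta2, Gstm5 and Ces2c also lacked a single-symbol probe set and were not analysed here.

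**Figure D3:**
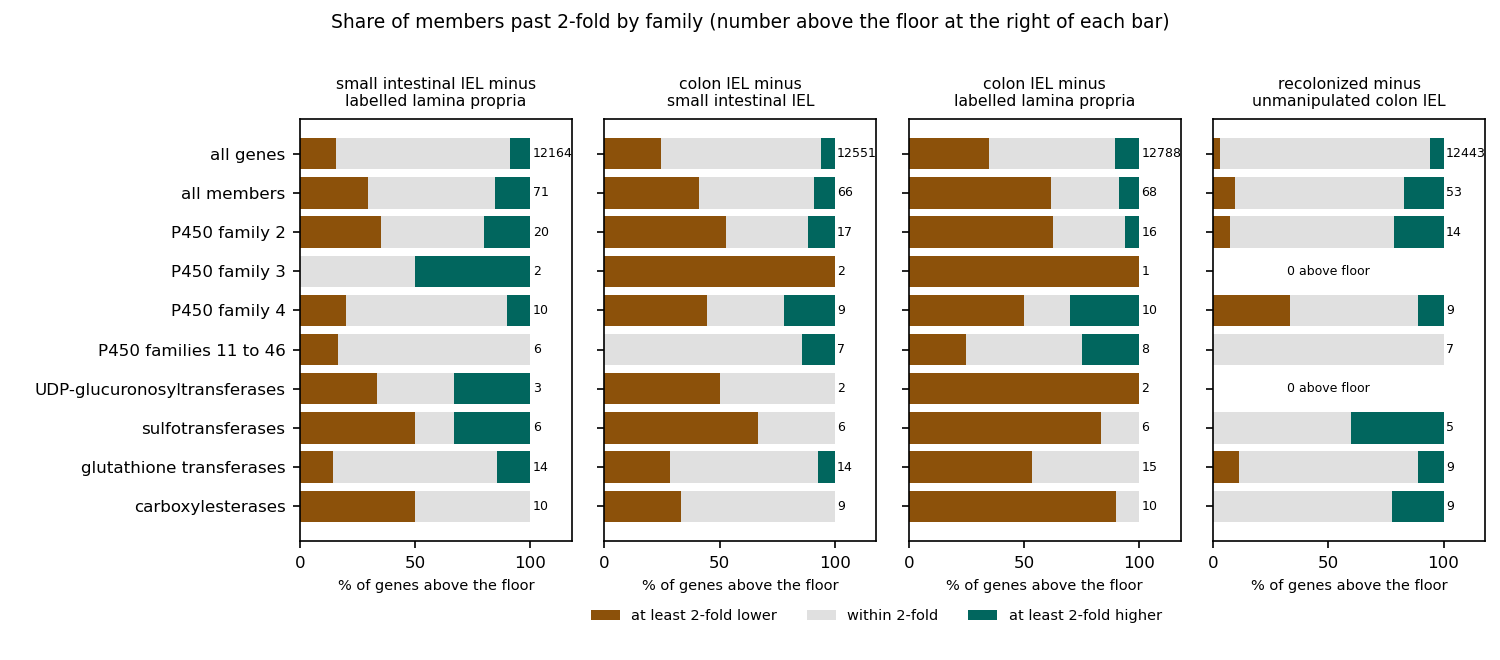
Share of genes above the level floor (x axis, %) that were at least 2-fold lower, within 2-fold or at least 2-fold higher, by family, for the 4 comparisons; the number above the floor stands at the right of each bar and the top bar is all genes. P450 family 1 had no member above the floor in these comparisons and is not drawn. Brown bars are long in the middle panels, where 27 of 66 and 42 of 68 members were lower for colon IEL.

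Colon IEL were next set against small intestinal IEL, the comparison that asks how IEL differ along the gut. More members were lower than higher for colon IEL. Of 66 members counted, 27 (40.9%) were at least 2-fold lower for colon IEL and 6 (9.09%) higher, against 24.4% and 5.98% (30.4% either way) of all 12551 genes, and the median difference was −0.61 against −0.30. Cyp3a13 (−6.50), Gstm3 (−6.45), Cyp4v3 (−5.35), Sult6b2 (−5.30) and Cyp4f14 (−5.22) had the largest negative differences, followed by Sult1b1 (−4.89), Ces2e (−4.77) and Sult1d1 (−4.75). Enterocyte markers were lower beside them, with 15 of 15 at least 2-fold lower and a median of −6.12, and their part in these differences was not tested. Sult1a1 and Ces1g, bright on the LP-labelled array, were within 2-fold here, with differences of 0.92 and 0.47. The former passed 2-fold after quantile normalization (1.13) and centring (1.22), and with the recolonized array (1.01). Of the 6 higher members, Cyp4b1-ps2 and Cyp4f17 reached the 75th percentile for colon IEL and the other 4 did not: Cyp4b1-ps2 was at 3.74 against 1.43, Cyp4f17 at 4.06 against 1.88, Cyp2d13 at 3.05 against 1.51, the retinoic acid hydroxylase Cyp26b1 higher by 1.21, Cyp2c54 at 2.71 against 1.68 and Gstt4 at 3.13 against 2.11. Red cell markers were also at least 2-fold higher for colon IEL in 4 of 4 (median 4.47) and stromal markers in 5 of 10 (median 1.08), and their part was not tested.

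Against the LP-labelled array, meant to show what sets IEL apart from T cells beneath the epithelium, 42 of 68 members (61.8%) were at least 2-fold lower for colon IEL and 6 (8.82%) higher. Among all 12788 genes the shares were 34.7% and 10.5% (45.2% either way), and the median differences were −1.53 for the members and −0.44 for all genes. All 15 pan-epithelial markers were lower by a median of 4.13, and their part in the enzyme differences was not tested. Sult1d1 (−6.13), Cyp3a13 (−6.08), Cyp2c65 (−6.08), Sult1a1 (−5.67), Ces2e (−5.62) and Ces1g (−5.37) led it. Carboxylesterases were lower in 9 of 10 members counted, glutathione transferases in 8 of 15 and sulfotransferases in 5 of 6. In both comparisons of colon IEL, 20 members were lower, among them Gstp1, Gsta4, Cyp2j6 and Ces2a, and 4 were higher (Cyp26b1, Cyp2c54, Cyp4b1-ps2 and Cyp4f17). The comparisons share the colon IEL array, and the overlap over all genes was not counted. Of all genes counted, 24.4% were lower and 5.98% higher against small intestinal IEL, and 34.7% and 10.5% against the LP-labelled array. Cyp4f18, a leukotriene B4 hydroxylase of myeloid cells, was at 3.84 for colon IEL and 2.91 for small intestinal IEL, and was 1.84 lower on the LP-labelled array than for colon IEL. Macrophage and dendritic cell markers had medians of 2.75 for colon IEL and 3.19 for small intestinal IEL, and their part was not tested.

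The recolonized sample was set against the unmanipulated colon to see what differs after antibiotics and the return of bacteria, without a sample taken after antibiotics only. Fewer members passed 2-fold here than in the other comparisons. Of 53 members counted, 9 (17.0%) were at least 2-fold higher on the recolonized array and 5 (9.43%) lower, against 6.04% and 3.06% (9.1% either way) of all 12443 genes, and the median differences were 0.14 and 0.13. Sult1d1 was at 4.48 against 2.67, Ces2a at 4.02 against 2.22, Gstp1 at 6.01 against 4.56, Cyp4f14 at 3.71 against 2.31 and Sult2b1 at 3.12 against 2.08. These 5 genes were brighter still on both epithelium-rich arrays. The other 4 were Cyp2d34 at 3.14 against 1.95, Cyp2a22 at 4.14 against 2.62 and the pseudogenes Ces2d-ps at 4.36 against 2.82 and Cyp2d37-ps at 3.93 against 2.80. On the recolonized array 6 of 15 pan-epithelial, 6 of 10 goblet cell and 5 of 8 counted colonocyte markers were also at least 2-fold higher, with medians of 0.70, 1.42 and 2.37, and their part in the enzyme differences was not tested.

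Lower on the recolonized array were Cyp4f17 at 1.99 against 4.06, Cyp4b1-ps2 at 1.79 against 3.74, Gstt4 at 1.79 against 3.13, Cyp2j6 at 1.87 against 3.11 and Cyp4f18 at 2.60 against 3.84. For Cyp4f17, Cyp4b1-ps2, Gstt4 and Cyp4f18 the unmanipulated colon IEL array was the highest of the 4. That array was also the highest for each of the 4 measured red cell markers, all at least 2-fold lower on the recolonized array with a median of −5.32, and B cell markers were lower by a median of 1.05. Their part was not tested either. Gstm1 and Gstp2 had the same level on both colon IEL arrays to 2 decimals, and Sult1a1 differed by 0.08. The probe set that lists both Gstp1 and Gstp2 was at 3.89 for colon IEL and 5.13 after recolonization. The SD of ribosomal protein genes between these arrays was 0.60.

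**Figure D4:**
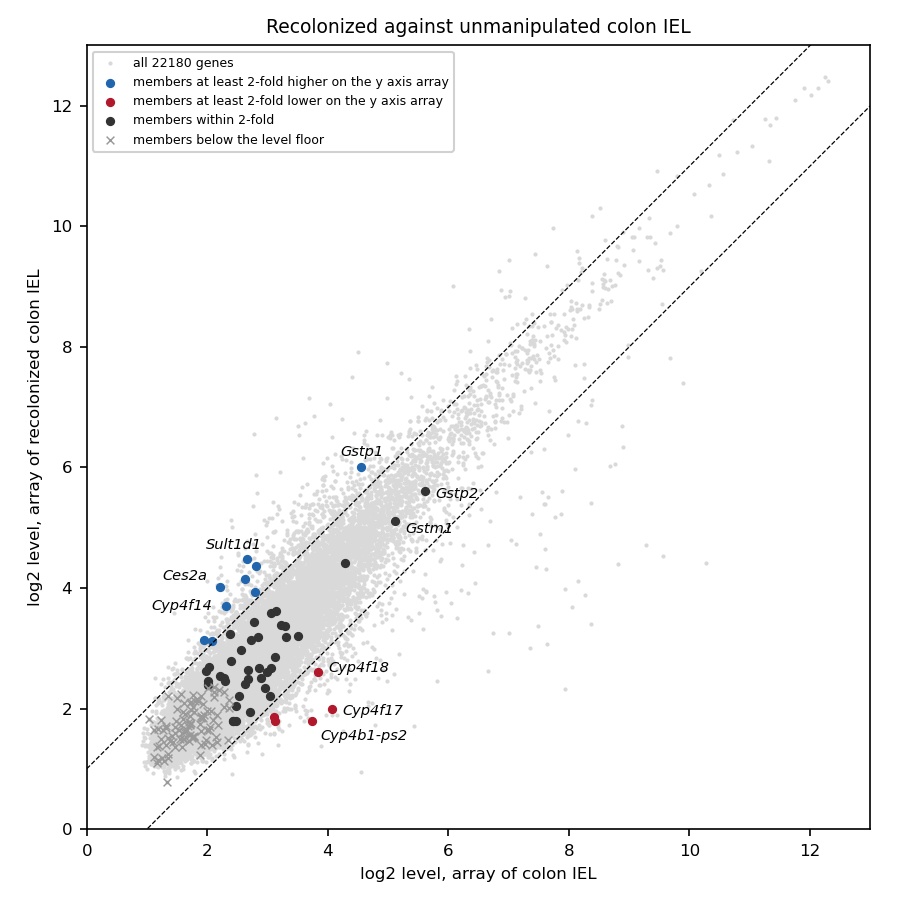
Log2 level of each gene on the unmanipulated colon IEL array (x axis) and the recolonized colon IEL array (y axis), with all 22180 genes in grey, members in colour by their call and dashed lines at 2-fold. Sult1d1, Ces2a, Gstp1 and Cyp4f14 lie above the upper line and Cyp4f17, Cyp4b1-ps2 and Cyp4f18 below the lower one, while Gstm1 and Gstp2 lie on the diagonal.

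The surroundings of these enzymes were described from lists of related genes. Of 8 listed electron donors and partners of the P450 enzymes 6 were measured, and the P450 reductase gene Por was not among those 6. Cyb5r3, the cytochrome b5 reductase, was at 7.80 on the LP-labelled array and 9.11 for small intestinal IEL. It was at 5.75 and 6.50 for colon and recolonized colon IEL. In contrast, Fdx1, a ferredoxin of mitochondrial P450 enzymes, stayed at 2.68 to 3.06 and Hmox1 at 1.60 to 1.83. Of 5 partners counted, 1 was higher and 0 were lower for small intestinal IEL against the LP-labelled array, and 4 were lower for colon than for small intestinal IEL. Over all genes counted, 8.76% were higher and 15.7% lower in the former comparison, and 24.4% lower in the latter. Among 16 regulators counted in the first of these comparisons, 2 were higher and 5 lower for small intestinal IEL. Hnf4g, a nuclear receptor of enterocytes, was at 8.85 against 5.95, and Nr1i3 (CAR) at 3.57 against 2.30. Pparg was at 2.19 against 6.43, the bile acid receptor Nr1h4 (FXR) at 3.08 against 5.88, Cdx2 at 5.08 against 6.98 and Nr1i2 (PXR) at 4.69 against 6.19. Hnf4a, unlike Hnf4g, was also lower, at 6.66 against 7.73. In the recolonized comparison all 16 regulators counted were within 2-fold, as were most genes: 9.1% of all 12443 genes counted passed it either way.

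Efflux transporters also differed by array. Abcc2, which exports conjugates across the apical membrane, was at 7.53 for small intestinal IEL and between 1.72 and 2.07 on the other arrays. Abcc3, its basolateral counterpart, was at 8.19 on the LP-labelled array against 4.15 for small intestinal IEL. Abcg2 was at 6.20 against 3.75 and the peptide transporter Slc15a1 at 6.03 against 8.45. Of 15 transporters counted, 2 were higher and 5 lower for small intestinal IEL, against 8.76% and 15.7% of all genes counted. Genes that supply cofactors leaned one way, with 0 of 11 higher and 7 lower, against the same shares of all genes. The sulfate transporter Slc26a2 was at 6.16 against 9.20, the glutathione synthesis gene Gclc at 4.95 against 7.35 and Gss at 3.62 against 5.80. Of the genes that make the sulfate donor, Papss1 was at 4.26 against 6.48, while Papss2 was within 2-fold, at 10.17 against 10.99. Pan-epithelial markers leaned the same way as the cofactor list.

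Other phase I enzymes included Xdh at 7.75 against 4.69 and the epoxide hydrolase Ephx2 at 7.79 against 4.75, both higher for small intestinal IEL, and Akr1c12 at 2.03 against 4.85 and Nqo1, a quinone reductase, at 4.38 against 6.97. In that list 5 of 29 counted genes were higher and 12 lower, against 8.76% and 15.7% of all genes counted, shares that also apply to the next list. Other conjugating enzymes had 1 of 11 higher, Hpgds at 3.51 against 2.01, and 6 lower, led by Tst at 3.76 against 7.42, followed by Tpmt at 3.51 against 5.33 and Mgst3 at 5.71 against 7.32. Between recolonized and unmanipulated colon IEL, Aldh1a1, a retinaldehyde dehydrogenase, was at 4.08 against 6.44, and Gclm at 3.75 against 6.04. Both were lower on the recolonized array.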

How the data were processed

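Levels came from the deposited series value table, which holds log2 probe set levels that the authors produced; the submitters' processing notes name Affymetrix Expression Console. For its version, summarization, normalization and build, nothing is given in the sources used here, so the low end of the scale and the differing spread of the arrays may shape small levels. Of 41345 probe sets, 23521 list 1 gene symbol, 1814 several and 16010 were not in the platform gene table used. Where a gene had several single-symbol probe sets, the brightest by mean of 4 arrays stood for it. All 155 members matched RefSeq (GRCm38.p6) by gene ID and symbol, and 3 had 2 probe sets. RefSeq promoter sequences carry that build. Each comparison was a difference of log2 levels with a floor at the 50th percentile of the brighter array and a 2-fold threshold. With 1 array per group the number of arrays limits the precision, and no test was possible.

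The members and lists were chosen with earlier results of these data known. Named members were the 8 with the largest difference in each direction per comparison, a fixed set of well-studied enzymes, and up to 4 genes per list; others were named after their values were seen. Alternatives were floors at the 25th and 75th percentiles or none, thresholds of 1.5-fold and 3-fold, the mean of probe sets, centring on the median, quantile normalization of the arrays, a lowess correction (span 0.3) and the removal of P450 families 11 to 46. Substituting the recolonized sample for unmanipulated colon was added after seeing the data. Counting steps were tested on simulated data. Python 3.11.15, pandas 2.3.3, numpy 2.4.6 and statsmodels 0.14.6 were used.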

Additional observations from a re-analysis of the deposited data

How the results depend on the processing

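No paired analysis was possible because each group has 1 array. The pseudocount listed for linear values was not run, since the values are on a log2 scale. Without a floor the median difference of all 155 members turned to 0.0204 when small intestinal IEL were set against the LP-labelled array, 0.0104 when colon IEL were set against small intestinal IEL and 0.0214 when colon IEL were set against the LP-labelled array, as 75 members lie below the median on every array. With the floor at the 25th percentile it was −0.0449 in the first and −0.23 in the last of these, and with the floor at the 75th percentile −2.96 in the second and −3.03 in the last. In the recolonized comparison it was −0.0304 after the lowess correction. At the 75th percentile, higher members numbered 2 and 3 in the comparisons of colon with small intestinal IEL and with the LP-labelled array, and lower members 3 in the recolonized one. At 1.5-fold, 33 were lower in the first, 13 higher in the second and 11 lower in the recolonized comparison. At 3-fold, 2 were higher in each of the 3 comparisons with the colon IEL array, and 2 lower in the recolonized one. With the recolonized array in place of colon IEL, 2 members were higher than on the LP-labelled array, Cyp4f17 turned to −0.63 there, and Gstt4 turned to −0.31 against small intestinal IEL. Gstm1 turned to 0.0248 in colon IEL against the LP-labelled array after the lowess correction, and against small intestinal IEL, where it was not called, to 0.49 after quantile normalization and 0.35 after the lowess correction. Of the values of named genes, 82 moved by more than the SD of ribosomal protein genes without a called value changing sign, 31 of them under lowess, 27 with the recolonized array, 23 under quantile normalization and 1 with the mean of probe sets. All other summary values, 99 in number, stayed within 1.5-fold of the count or within the SD of ribosomal protein genes of the median. Among all genes, the higher share of calls was 35.8%, 19.7%, 23.2% and 66.3% in the 4 comparisons and 46.3%, 42.1%, 47.6% and 48.2% after centring, which moves the median of all genes by 0.17, 0.30 and 0.44 upwards and by 0.13 downwards. Among the members it was 34.4%, 18.2%, 12.5% and 64.3%, and after centring 41.2%, 26.5%, 19.6% and 61.5%. The cause of these changes was not tested.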

Other observations

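Probe sets that list several symbols were left out of all comparisons, and 14 of them list at least 1 gene with a name of these families. A probe set of alpha class glutathione transferase genes was at 8.75 for small intestinal IEL, 4.01 on the LP-labelled array, 2.81 for colon IEL and 1.90 after recolonization. Another probe set of that class was at 7.41, 3.82, 2.02 and 2.73, and one more stayed between 1.37 and 1.79. A pair of probe sets that list only Cyp3a genes were at 4.25 and 4.28 for small intestinal IEL and between 1.32 and 1.84 on the other arrays. The probe set that lists 8 Ugt1a genes was at 3.86 on the LP-labelled array and at 1.72 to 2.41 on the IEL arrays. Which of the listed genes these probe sets read was not tested.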
